A study of Homo sapiens with 12 samples.

Results

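The FOS, JUN and EGR families include immediate early transcription factors, which cells switch on within minutes of a signal without first making new protein. Not every member behaves in this way. The 10 members described here, FOS, FOSB, FOSL1, FOSL2, JUN, JUNB, JUND, EGR1, EGR2 and EGR3, were taken by gene name from the 58735 genes of the count table, and all 10 were among the 16046 genes that passed the filter on low counts. They were chosen by measured counts, since those of FOS and FOSB were lower with the anti-VEGFA antibody than in OE-MMP28 alone. The values of that comparison, and of every comparison that holds the anti-VEGFA libraries, are therefore given as a description with no test.

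RNA was sequenced from tumor-associated macrophages (TAMs) made from THP-1, a human monocytic leukemia cell line, by PMA treatment, and cocultured across a Transwell membrane with the pancreatic cancer cell line AsPC-1. There were 4 groups of 3 libraries. In the control group the AsPC-1 cells carried an empty vector, and in the OE-MMP28, anti-IL-8 and anti-VEGFA groups they all overexpressed MMP28, a secreted metalloproteinase. IL-8 was neutralized in the anti-IL-8 group (antibody MAB208-SP) and VEGFA in the anti-VEGFA group (antibody MAB293-SP). Whether any of these cultures received a control antibody is not stated. PMA itself is a classic inducer of FOS, JUN and EGR genes through protein kinase C, and every group had received it. In the paper's methods the PMA treatment and the coculture each ran for days, with no separate time given for the sequenced cells. The values are therefore read as late levels and not as a first response within minutes. The labels do not say whether the libraries of a group came from separate cultures, so the p-values measure only the spread between libraries, which may be technical. The overexpressing cells were used in all groups but the control, so MMP28 and any other difference between the control and the remaining cultures cannot be told apart.

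Library totals ran from 15852346 to 18701195 counts, and 3 counts corresponded to 0.160 to 0.195 CPM (counts relative to the library total, here scaled by the TMM method of edgeR). MMP28, which was overexpressed in the cancer cells and not in the TAMs, had 0 counts in all 12 libraries and so does not check the labels. Of 9 macrophage markers, 8 passed the filter, led by CD14 with 11260 to 28850 counts, whereas CD68 had only 0 to 5 counts. EPCAM, which defines epithelial cells, was at 0 in every library, and the 8 epithelial markers together gave 2.11 to 5.15 CPM. Mitochondrial genes took 6.92% of the counts in anti-VEGFA replicate 1 and 17.8% in anti-VEGFA replicate 2, with the other 10 libraries between these values.

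FOS proteins cannot pair with each other and bind DNA as dimers with JUN proteins, and these dimers form the transcription factor AP-1. Some members, such as FOS, JUN and EGR1, are also induced through MAP kinases and factors such as SRF, ELK1 and CREB1 that already sit on their promoters. In monocytes and macrophages, AP-1 and EGR factors take part in differentiation and in cytokine and protease expression.

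The promoters of the 3 members that fell in a tested comparison (FOS, FOSB and EGR1) and of 1 JUN gene that did not (JUND) are shown to set those genes side by side. Each run holds the 250 bases before the transcription start in RefSeq (GRCh38.p14), 5′ to 3′ on the gene's own strand. Of the 10 members, 8 had a promoter in the table used here. FOS lies at chr14:75278578-75278827 (plus strand), FOSB at chr19:45467746-45467995 (plus strand), EGR1 at chr5:138465229-138465478 (plus strand) and JUND at chr19:18281623-18281872 (minus strand). The GENCODE 29 model of FOS begins inside the FOS window. Capitals mark the CRE core TGACG on either strand (CGTCA on the reverse), the complete CRE TGACGTCA, the SRF-binding CArG box and the TATA motif TATAAA.
FOS: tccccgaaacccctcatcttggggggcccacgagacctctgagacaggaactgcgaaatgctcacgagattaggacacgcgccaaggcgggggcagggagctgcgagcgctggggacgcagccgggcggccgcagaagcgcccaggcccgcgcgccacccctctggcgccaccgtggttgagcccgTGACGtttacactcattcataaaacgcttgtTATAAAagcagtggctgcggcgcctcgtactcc
FOSB: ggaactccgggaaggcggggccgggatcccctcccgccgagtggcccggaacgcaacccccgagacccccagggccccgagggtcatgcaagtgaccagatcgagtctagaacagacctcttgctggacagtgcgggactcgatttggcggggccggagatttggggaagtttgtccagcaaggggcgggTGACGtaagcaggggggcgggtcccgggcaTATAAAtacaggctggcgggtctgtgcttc
EGR1: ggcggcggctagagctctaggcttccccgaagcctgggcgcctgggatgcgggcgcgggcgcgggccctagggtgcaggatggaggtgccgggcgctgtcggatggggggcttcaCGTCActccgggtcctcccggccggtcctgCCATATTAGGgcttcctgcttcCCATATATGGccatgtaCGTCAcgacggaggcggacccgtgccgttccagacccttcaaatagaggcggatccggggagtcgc
JUND: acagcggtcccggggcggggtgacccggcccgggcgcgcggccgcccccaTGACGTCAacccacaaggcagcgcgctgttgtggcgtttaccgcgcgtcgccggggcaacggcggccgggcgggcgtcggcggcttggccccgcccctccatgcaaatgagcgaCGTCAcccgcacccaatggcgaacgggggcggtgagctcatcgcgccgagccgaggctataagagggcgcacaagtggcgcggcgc
FOS had TGACG from base -64 to -60 before its start and TATAAA from -33 to -28, and FOSB had TGACG from -60 to -56 and TATAAA from -30 to -25. Members that did not fall held these letters too, JUNB with TGACG from -137 to -133 and TATAAA from -31 to -26, and FOSL2 with TGACG from -66 to -62. EGR1 held CArG boxes from -105 to -96 and from -83 to -74, and the CRE core on the reverse strand from -135 to -131 and from -66 to -62. JUND held the complete CRE from -200 to -193, which includes the core on both strands, and a further reverse core from -86 to -82. Among all 35116 promoters in the table, over windows of 300 bases and on both strands, 1.29% held a CArG box, 1.85% TGACGTCA, 24.6% TGACG and 11.5% TATAAA. The AP-1 motif TGANTCA (7.71% of promoters) and the EGR motif GCGNGGGCG (9.43%) were searched as well. None of the 4 runs held the former, and EGR1 held the latter from -198 to -190. Bases further upstream than these 250 were not searched, so a motif not marked in a run may lie beyond it. These matches describe the letters only, and the series has no measurement of binding.

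On the per-length scale (FPKM, the authors' values, each a count divided by gene length and by 1 total per library), the JUN family stood above the FOS family in these TAMs. That total was not the library's sum of counts, for example 17129812 against 15852346 in anti-VEGFA replicate 1. Averaged over the 12 libraries, the order was JUND (217 FPKM), JUN (186), FOS (165), EGR2 (136), JUNB (94.2), EGR1 (41.9), FOSL2 (23.5), FOSL1 (15.8), FOSB (8.24) and EGR3 (0.555). Neighbours in this order overlapped from library to library in several places. JUND ran from 148 to 351 FPKM and JUN from 147 to 201, and FOS ran from 85.9 to 251, so the first 3 places are not separated. EGR3 was measured from 32 to 72 counts per library, and every other member had at least 249.

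**Figure D1:**
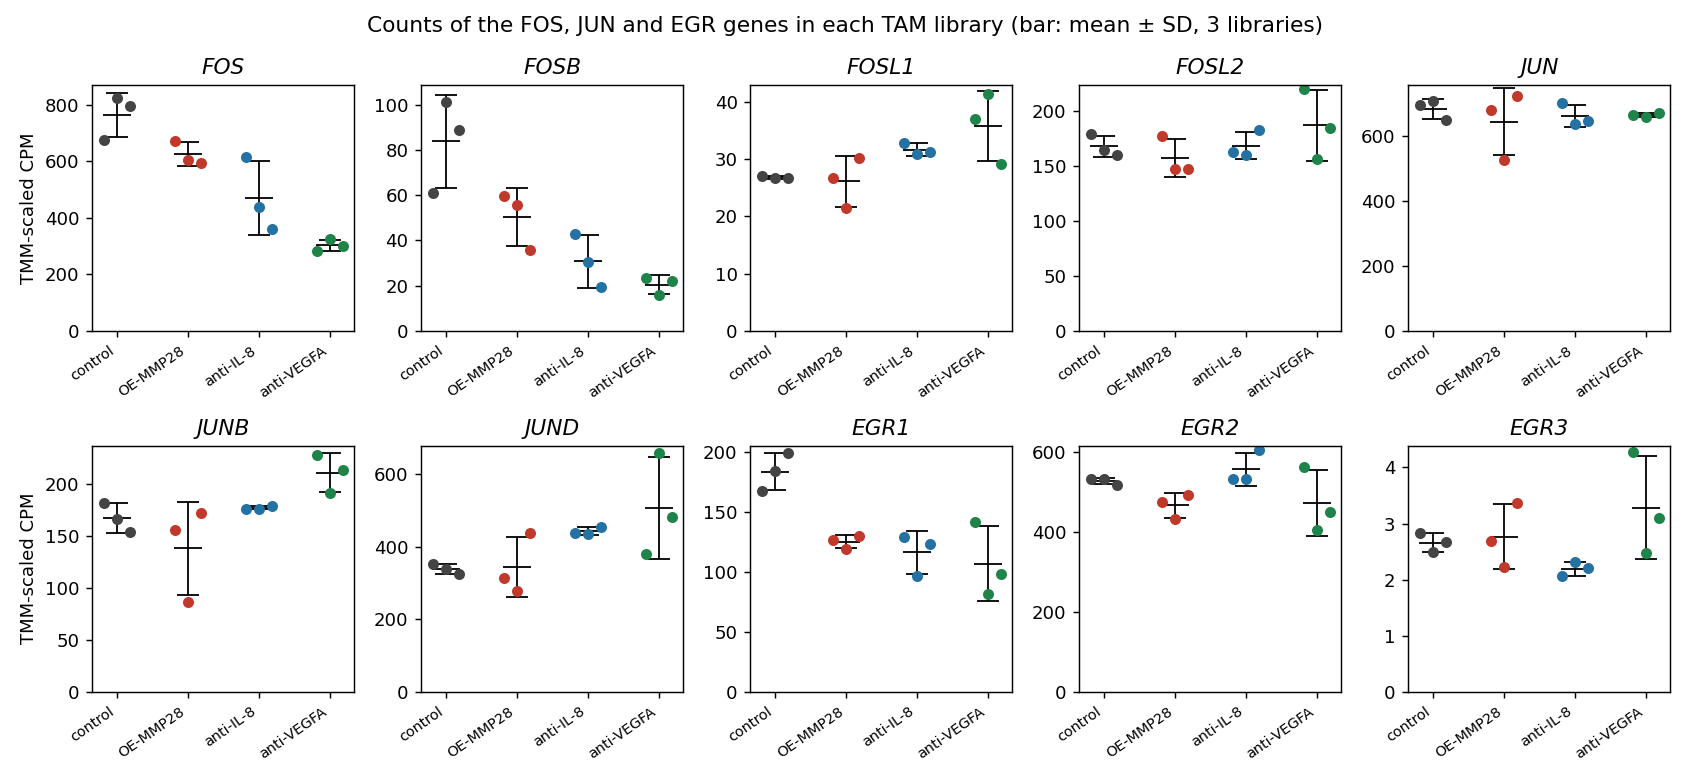
Each panel plots 1 member's TMM-scaled CPM (vertical axis, from 0) in the 3 libraries of each group (points, replicates 1 to 3 from left to right), with the mean ± SD as a bar. FOS and FOSB step down from control to anti-VEGFA, EGR1 is lower in the 3 overexpression groups than in control, and JUN lies at a like level in all 4 groups.

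FOS (ENSG00000170345, chr14:75278774-75282230, plus strand, GENCODE 29 on GRCh38, as are the positions below) is the prototype of the family. Its CPM was 673, 821 and 793 in control, 673, 606 and 594 in OE-MMP28, 615, 438 and 360.2 under anti-IL-8, and 283, 325 and 299 under anti-VEGFA. The control and anti-VEGFA libraries were far apart, while the lowest control library and the highest OE-MMP28 library differed by less than 1 CPM, and anti-IL-8 replicate 1 fell among the OE-MMP28 libraries.

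FOSB (ENSG00000125740, chr19:45467995-45475179, plus strand), a close relative of FOS, was measured at a much lower level. Its CPM was 61.0, 101 and 88.9 in control, 59.6, 55.4 and 35.8 in OE-MMP28, 42.8, 30.4 and 19.4 under anti-IL-8, and 23.4, 15.8 and 22.2 under anti-VEGFA. The order of the group means was that of FOS, but the libraries of neighbouring groups overlapped except between control and OE-MMP28, which were separated by little more than 1 CPM. FOSB lies inside the gene body of ERCC1, a DNA repair gene, on the opposite strand. The annotated exons of the 2 genes share 0 bases, ERCC1 had 1128 to 2167 counts per library, and whether the counting used strand is not given in the sources used here. ERCC1 was not called in any tested comparison (log2 fold change 0.28, SE 0.18, for anti-IL-8 against control).

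The 2 FOS-related antigens did not follow FOS. FOSL1 (ENSG00000175592, chr11:65892049-65900573, minus strand), which like FOSL2 lacks the strong transactivation domain of FOS, had 27.1, 26.6 and 26.7 CPM in control, 26.7, 21.5 and 30.2 in OE-MMP28, 32.9, 30.8 and 31.3 under anti-IL-8, and 36.9, 41.3 and 29.2 under anti-VEGFA. Every anti-IL-8 and anti-VEGFA library was above every control library for FOSL1. FOSL2 (ENSG00000075426, chr2:28392448-28417312, plus strand) stayed between 147 and 219.6 CPM, and its libraries overlapped in all 6 comparisons of groups.

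JUN (ENSG00000177606, chr1:58780788-58784327, minus strand), the main partner of FOS, was the steadiest member between groups. Its CPM was 696, 709 and 650.3 in control, 682, 528 and 723 in OE-MMP28, 702, 638 and 648 under anti-IL-8, and 667, 661 and 671 under anti-VEGFA. Only OE-MMP28 replicate 2 stood below the rest. JUNB (ENSG00000171223, chr19:12791496-12793315, plus strand), which can restrain JUN, was lowest in that same library. Its CPM was 182, 166 and 154 in control, 155, 86.7 and 172 in OE-MMP28, 176, 176 and 179 under anti-IL-8, and 228, 191 and 214 under anti-VEGFA. All 3 anti-VEGFA libraries exceeded all 9 others. JUNB lies inside HOOK2 on the opposite strand and shares 259 exon bases with it, and HOOK2 had 203 to 376 counts per library against 1482 to 4006 for JUNB. JUND (ENSG00000130522, chr19:18279760-18281622, minus strand), a JUN gene that is usually active in resting cells, had 352, 338 and 325 CPM in control, 314, 279 and 438 in OE-MMP28, 437, 436 and 456 under anti-IL-8, and 380.1, 659 and 481 under anti-VEGFA. Its highest value came from anti-VEGFA replicate 2, the library with the largest mitochondrial share.

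EGR1 (ENSG00000120738, chr5:138465490-138469315, plus strand) encodes a zinc finger factor that is induced alongside FOS in many cells. Its CPM was 168, 184 and 199 in control, 127, 119 and 129 in OE-MMP28, 129, 96.0 and 123 under anti-IL-8, and 141, 81.0 and 98.0 under anti-VEGFA. All 9 libraries cocultured with MMP28-overexpressing cells were below all 3 control libraries, and they overlapped among themselves. EGR2 (ENSG00000122877, chr10:62811996-62919900, minus strand), a relative with roles in macrophages, ran from 404 to 605 CPM. EGR3 ran from 2.06 to 4.28 CPM.

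The first comparison asked what coculture with MMP28-overexpressing cancer cells changed. Between OE-MMP28 and control, 0 of the 10 members passed edgeR's quasi-likelihood test at an adjusted p of 0.05, against 3.16% of all genes tested. At an unadjusted p under 0.05 by edgeR there were 2 members, FOSB and EGR1, beside 2332 of all 16046 genes. DESeq2 called 1 member (EGR1) and limma's voom 0. EGR1 was lower by a log2 fold change of -0.55 (SE 0.17, adjusted p 0.095 by edgeR), a fold of 0.682. FOSB gave -0.73 (SE 0.25, adjusted p 0.14 by edgeR) and FOS -0.29 (SE 0.16, adjusted p 0.45 by edgeR). The libraries of FOS, FOSB, EGR1 and EGR2 did not overlap and were lower in OE-MMP28, whereas 11.6% of all genes met that condition. The other 6 members overlapped, with log2 fold changes from -0.28 (JUNB) to 0.05 (EGR3). EGR1 passed in 2 of 12 fits with 1 library left out, with an adjusted p of 0.024 without anti-VEGFA replicate 1 and 0.033 without anti-VEGFA replicate 2 by edgeR. This comparison shares the OE-MMP28 libraries with the one that led to the choice of FOS and FOSB. Cell type markers were followed here as well. Of 8 macrophage markers tested, CD14 alone was called, and it was higher (0.80, adjusted p 0.027 by edgeR). Of the 8, 5 had values above 0, while ITGAM (-0.17), CSF1R (-0.16) and PTPRC (-0.26) were below 0. Of 2 epithelial markers tested, MUC1 was called lower (-1.01, adjusted p 0.034 by edgeR). CD14 and MUC1 were each called in 7 of 12 fits with 1 library left out. The summed level of the 8 epithelial markers was 4.62 to 5.15 CPM in control and 2.11 to 3.12 in OE-MMP28. Most of that sum was MUC1, which averaged 3.62 CPM in control and 1.80 in OE-MMP28. Of 4 markers of dividing cells, 0 were called by edgeR and 0 had values above 0 (median -0.25). Their summed level was 51.1 to 53.1 CPM in control and 36.5 to 47.5 in OE-MMP28. The part of any of these marker lists in the values of the members was not tested.

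**Figure D2:**
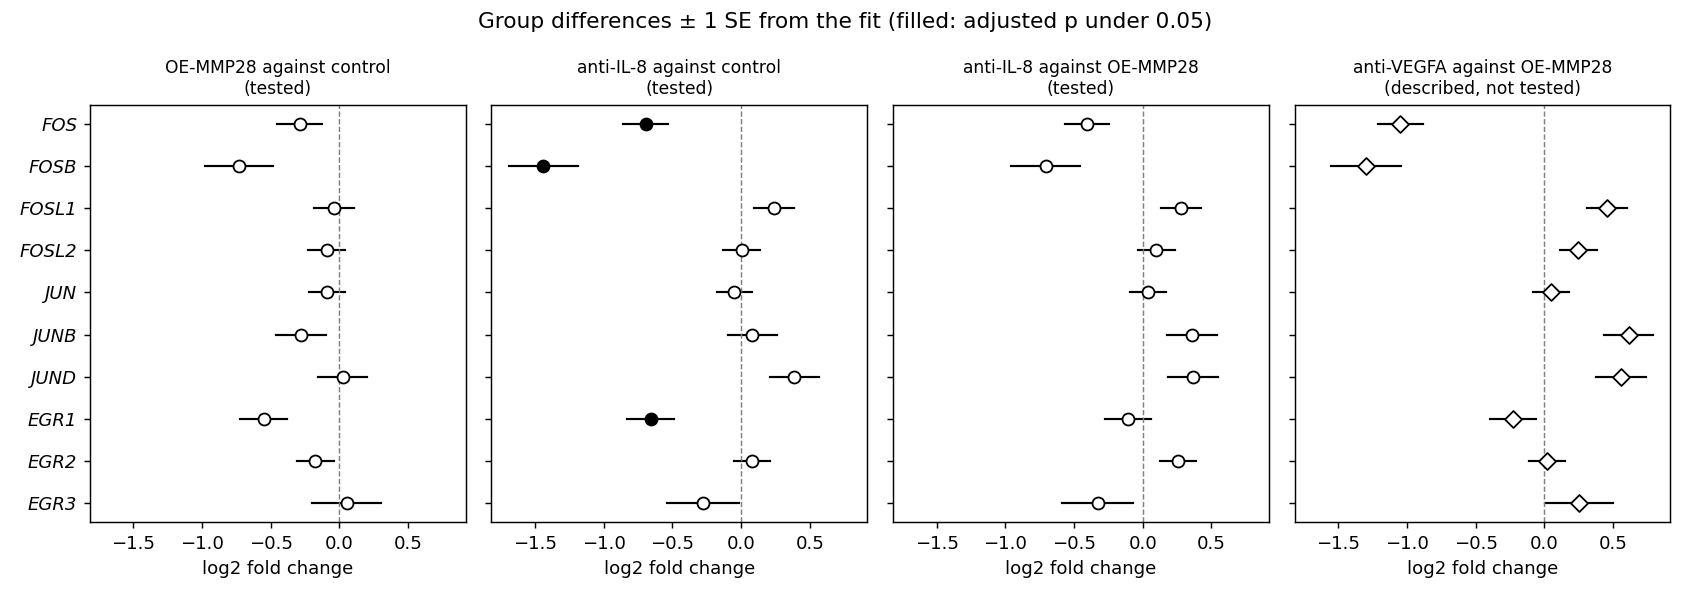
Log2 fold changes (horizontal axis) of the 10 members in 4 comparisons, with lines of ± 1 SE from the fit of all 12 libraries. Filled circles mark an adjusted p under 0.05 by edgeR and diamonds mark the comparison given with no test. FOS, FOSB and EGR1 are filled for anti-IL-8 against control, and JUN lies near 0 in every panel.

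The anti-IL-8 and control groups hold none of the libraries behind the choice of the members, although those libraries entered the filter, the scaling and the shared estimate of spread in the fit of all 12. The groups differ both in MMP28 overexpression by the cancer cells and in the antibody, and this comparison cannot tell these apart. FOS, FOSB and EGR1 fell, and the other 7 members were not called. These 3 of 10 compare with 20.7% of all genes tested, and the 3 lower members with 10.9% of genes called lower. FOS fell from 763 ± 78.7 to 471 ± 131 CPM (mean ± SD, n = 3 each), a log2 fold change of -0.69 (SE 0.16, adjusted p 0.0084 by edgeR). FOSB fell from 83.7 ± 20.6 to 30.9 ± 11.7 CPM, a log2 fold change of -1.44 (SE 0.25, adjusted p 0.0012 by edgeR). EGR1 fell from 183 ± 15.5 to 116 ± 17.7 CPM, a log2 fold change of -0.66 (SE 0.17, adjusted p 0.013 by edgeR). The libraries of each of these genes did not overlap between the groups, which held for 24.4% of all genes in the lower direction. FOSB remained called with each of the 12 libraries left out in turn. FOS was not called without anti-IL-8 replicate 3 (-0.53, adjusted p 0.055 by edgeR), its lowest library. EGR1 was not called without control replicate 3 (-0.60, adjusted p 0.061 by edgeR) or without anti-IL-8 replicate 2 (-0.54, adjusted p 0.052 by edgeR).

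In the same comparison the JUN genes did not fall with their partners. JUN gave -0.05 with a 95% interval from -0.32 to 0.23, and JUNB gave 0.08 with an interval from -0.30 to 0.46. JUND gave 0.39 (SE 0.18, adjusted p 0.13 by edgeR) and FOSL1 0.24 (SE 0.15, adjusted p 0.26 by edgeR), with every anti-IL-8 library above every control library for both, as for 23.4% of all genes. FOSL2 (0.0049, SE 0.13), EGR2 (0.08, SE 0.13) and EGR3 (-0.28, SE 0.26) were not called either, although the libraries of EGR2 (higher) and EGR3 (lower) did not overlap between the groups. In a fit of these 2 groups alone, which leaves the OE-MMP28 and anti-VEGFA libraries out, edgeR called FOS, FOSB and EGR1 too, and JUND (adjusted p 0.0010) and FOSL1 (adjusted p 0.039) as well. Markers of dividing cells moved in the same direction as FOS: their summed level was 51.1 to 53.1 CPM in control and 31.7 to 39.7 under anti-IL-8, with 3 of 4 markers (MKI67, TOP2A and CDK1) called lower. With 1 library left out 0 to 3 of them were called, with 0 without anti-IL-8 replicate 1. Of the 8 macrophage markers tested, 3 were called higher under anti-IL-8 (CD14, SPI1 and TYROBP) and 1 lower (PTPRC), and the summed level of the 9 listed was 2041 to 2316 CPM in control and 2892 to 3586 under anti-IL-8. CD14, the largest part of that sum, averaged 752 CPM in control and 1579 under anti-IL-8, and 6 of the 8 had values above 0. CD14 and PTPRC were called in all 12 fits with 1 library left out, SPI1 in 6 and TYROBP in 4. The part of either marker list in the FOS, FOSB and EGR1 values was not tested, and in bulk RNA fewer expressing cells and less RNA per cell cannot be told apart.

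Against OE-MMP28 alone, the anti-IL-8 antibody left 0 of 10 members, and 0% of all genes, past the adjusted threshold in edgeR, where the smallest adjusted p of any gene was 0.0627. At an unadjusted p under 0.05 there were 2 members (FOS and FOSB) and 4700 genes in all, DESeq2 called FOSB (adjusted p 0.035) among 2259 genes, and limma's voom called 0 genes. FOS gave a log2 fold change of -0.41 (SE 0.16, adjusted p 0.11 by edgeR) and FOSB -0.71 (SE 0.25, adjusted p 0.087 by edgeR). The other 8 members had values from -0.33 (EGR3) to 0.37 (JUND). The libraries of FOSL1, JUNB and EGR2 did not overlap and were higher with the antibody, as were those of 13.7% of all genes. This comparison depended on OE-MMP28 replicate 3. Without it edgeR called FOSB (-0.89, adjusted p 0.014), JUNB (0.56, adjusted p 0.027) and JUND (0.59, adjusted p 0.023), among 4183 genes. It also shares the OE-MMP28 libraries with the comparison that chose the members.

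The anti-VEGFA antibody against OE-MMP28 is the comparison that put FOS and FOSB forward, in which edgeR called 0.343% of all genes. FOS was at 302 ± 20.96 CPM against 624 ± 42.4, a log2 fold change of -1.05 (SE 0.16), and FOSB at 20.5 ± 4.08 against 50.3 ± 12.7, a log2 fold change of -1.30 (SE 0.26). No anti-VEGFA library reached the lowest OE-MMP28 library in either gene, a condition that 8.97% of all genes met. Among the members that were not the reason for the choice, EGR1 gave -0.23 (SE 0.17) and the remaining 7 had values above 0. JUNB gave 0.61 (SE 0.18) with no overlap of libraries (9.11% of all genes were higher in this way), JUND 0.56 (SE 0.18), FOSL1 0.46 (SE 0.15), FOSL2 0.25 (SE 0.13), EGR3 0.25 (SE 0.25), JUN 0.05 (SE 0.13) and EGR2 0.02 (SE 0.13). Leaving out 1 library at a time put 5 to 7 of the 10 members above 0.

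Against control, anti-VEGFA gave log2 fold changes of -1.34 (SE 0.17) for FOS, -2.03 (SE 0.26) for FOSB and -0.78 (SE 0.17) for EGR1, and 0.58 (SE 0.18) for JUND, 0.42 (SE 0.15) for FOSL1 and 0.33 (SE 0.18) for JUNB. None of these 6 genes had overlapping libraries, as was the case for 17.4% of all genes in the lower and 16.9% in the higher direction. Against anti-IL-8, anti-VEGFA gave -0.64 (SE 0.16) for FOS with no overlap of libraries (9.64% of all genes were lower in this way) and -0.59 (SE 0.26) for FOSB with overlap. JUNB was 0.25 (SE 0.18) and EGR3 0.58 (SE 0.25) in that comparison, both with every anti-VEGFA library above every anti-IL-8 library, as in 11.3% of all genes. Each of these comparisons shares libraries with those above, so the values are set side by side and are not separate evidence.

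On the per-length scale, the summed level of the 4 FOS family genes was lowest and the share of FOS in it smallest with anti-VEGFA. The sum was 284 ± 25.6 FPKM in control, 235 ± 17.6 in OE-MMP28, 190.4 ± 41.1 under anti-IL-8 and 140.2 ± 5.12 under anti-VEGFA (mean ± SD, n = 3 each). FOS itself made up 81.6% ± 0.992 of that sum in control, 81.1% ± 0.492 in OE-MMP28, 75.4% ± 4.47 under anti-IL-8 and 65.7% ± 3.56 under anti-VEGFA. FOSL1 and FOSL2 made up more of the sum there, with FOSL2 at 8.21% ± 1.26 in control and 18.4% ± 3.40 under anti-VEGFA. The JUN family sum was 461 ± 24.5 FPKM in control, 437 ± 92.0 in OE-MMP28, 520.1 ± 14.2 under anti-IL-8 and 569 ± 66.6 under anti-VEGFA. The ratio of the FOS family sum to the JUN family sum was 0.532 to 0.672 in the control libraries, 0.424 to 0.661 in OE-MMP28, 0.298 to 0.449 under anti-IL-8 and 0.227 to 0.274 under anti-VEGFA. These shares and ratios are built from the counts that chose the members and are a description of transcript levels.

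**Figure D3:**
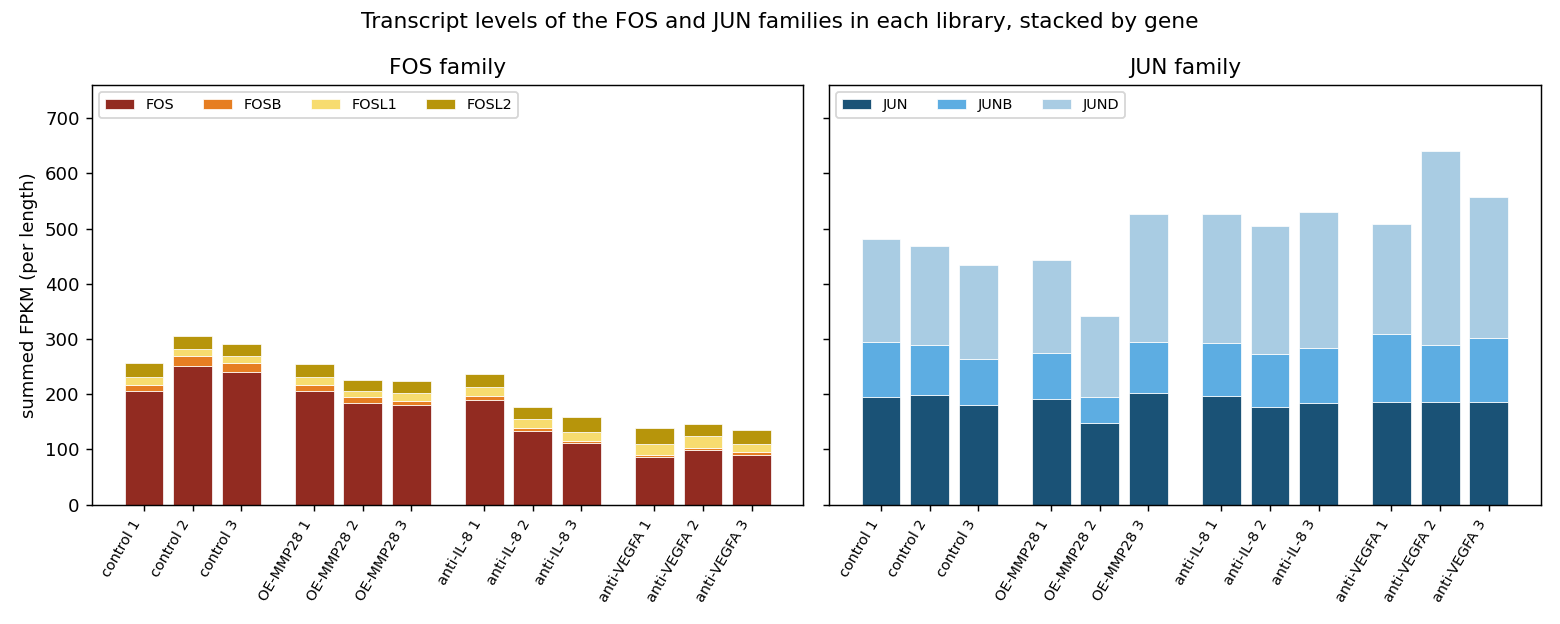
Bars stack the FPKM of the FOS family (left) and the JUN family (right) in each of the 12 libraries, on 1 common vertical axis from 0. The FOS family bars shorten from control to anti-VEGFA, mainly through FOS itself, while the JUN family bars do not.

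Beyond the members, immediate early genes and their neighbours were followed in lists that were written with earlier results of these data known. Their counts stand beside 3.16% of all genes called in OE-MMP28 against control and 20.7% in anti-IL-8 against control. At an unadjusted p under 0.05 by edgeR, the former comparison had 2332 of all 16046 genes. The latter differs in MMP28 overexpression and in the antibody together. Of 33 other immediate early genes tested, 2 were called lower and 0 higher in OE-MMP28 against control by edgeR (8 at an unadjusted p under 0.05, 2 in total by DESeq2 and by voom). CYR61, a matricellular protein and SRF target, fell from 28.6 ± 3.57 to 14.8 ± 2.69 CPM (log2 fold change -0.94 ± 0.16 SE, edgeR's adjusted p 0.0013). NR4A3, a nuclear receptor, fell by 0.72 on the log2 scale (SE 0.19, adjusted p 0.044 by edgeR), a call kept in 3 of 12 fits with 1 library left out. The median of this list was -0.09, against 0.02 over all genes.

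In anti-IL-8 against control, 12 of the 33 fell and 3 rose, where 10.9% of all genes were called lower, with a median log2 fold change of -0.23 against -0.02 over all genes. The largest falls were in SIK1 (-1.55, SE 0.38), a kinase induced by cAMP whose reads may be shared with its near-identical copy SIK1B, NR4A2 (-1.55, SE 0.20), a nuclear receptor, PTGS2 (-1.26, SE 0.19), the inducible cyclooxygenase, NR4A3 (-1.14, SE 0.19) and CYR61 (-1.07, SE 0.16). PTGS2 went from 240.2 ± 48.6 to 101 ± 15.5 CPM. IER3 rose from 599.7 ± 56.9 to 981 ± 92.4 CPM (0.71, SE 0.17), IER2 gave 0.69 (SE 0.18) and IER5 0.53 (SE 0.17). The 5 named falls and IER3 were called in all 12 fits with 1 library left out, IER2 in 11 and IER5 in 7. In those fits 8 to 13 genes of the list were called lower and 1 to 5 higher. With anti-VEGFA, given as a description with no test, 20 of the 33 had values above 0 against OE-MMP28 (median 0.15, all genes -0.0015). Against control, 16 of the 33 were above 0 with anti-VEGFA (median -0.0018, all genes 0.0014). The list as a whole therefore did not move down with FOS and FOSB there.

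Among 12 AP-1 partners and related leucine zipper factors, BATF2 and ATF3 were called lower in OE-MMP28 against control. BATF2, an interferon-induced partner of JUN proteins, fell from 23.4 ± 2.40 to 4.82 ± 1.31 CPM (log2 fold change -2.28 ± 0.20 SE, edgeR's adjusted p 3.3e-07). ATF3, a stress-induced factor that pairs with JUN proteins, fell from 668 ± 41.0 to 469.6 ± 12.3 CPM (-0.51 ± 0.11 SE, edgeR's adjusted p 0.015), a call kept in 9 of 12 fits with 1 library left out. In anti-IL-8 against control, BATF2 (-2.10, SE 0.19), ATF2 (-0.53, SE 0.14) and ATF3 (-0.40, SE 0.11) fell, and JDP2 (0.78, SE 0.16), BATF3 (0.62, SE 0.18) and MAFF (0.41, SE 0.14) rose. JDP2 encodes a repressor that pairs with JUN proteins. Of these 6 calls, those of BATF2 and JDP2 held in all 12 fits with 1 library left out. The median of the list was 0.19.

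Of 22 upstream kinases and promoter-binding factors, 0 were called in OE-MMP28 against control by edgeR, with 0 at an unadjusted p under 0.05 and 0 by DESeq2 or voom. In anti-IL-8 against control, 5 rose and 8 fell. The 5 that rose were MAPK7 (0.65, SE 0.14), NAB2 (0.58, SE 0.18), MAP2K2 (0.57, SE 0.17), RPS6KA1 (0.47, SE 0.15) and MAP2K7 (0.43, SE 0.13), where NAB2 is a corepressor that binds EGR proteins. Falls included RPS6KA5 (-0.74, SE 0.21), RPS6KA3 (-0.73, SE 0.15), ELK3 (-0.59, SE 0.15), MAPK8 (-0.55, SE 0.14), which encodes JNK1, and MRTFB (-0.52, SE 0.18), a cofactor of SRF. Only MAPK7 and RPS6KA3 of these 10 were called in all 12 fits with 1 library left out, and the number of falls ranged from 1, without anti-IL-8 replicate 1, to 9 and that of rises from 1 to 8. These are transcript levels and not kinase activity.

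**Figure D4:**
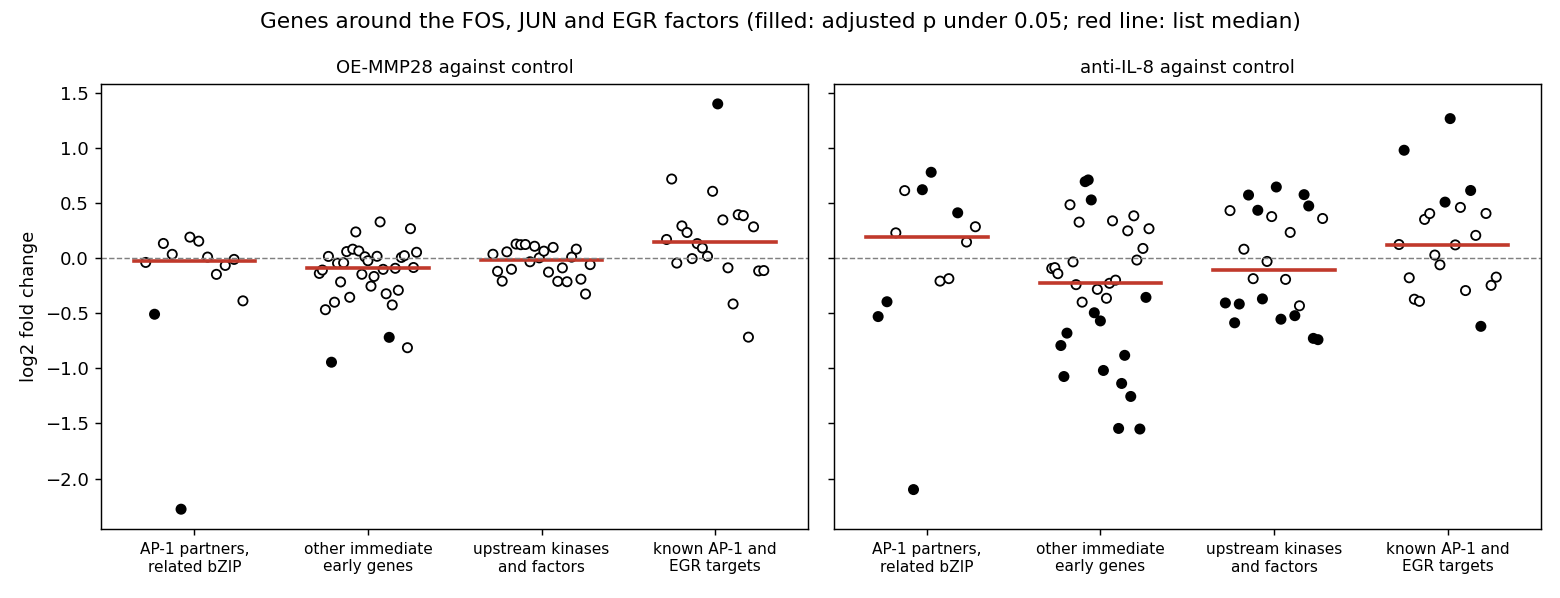
Each circle is 1 gene of 4 lists, and the vertical axis gives its log2 fold change in OE-MMP28 against control (left) and in anti-IL-8 against control (right). Filled circles passed an adjusted p of 0.05 by edgeR, and red lines mark list medians, which for the other immediate early genes is -0.09 on the left and -0.23 on the right.

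Of 20 genes known as AP-1 or EGR targets, 1 rose and 0 fell in OE-MMP28 against control by edgeR (7 at an unadjusted p under 0.05, 4 in total by DESeq2 and 2 by voom). It was MMP10, a secreted protease, which went from 2.21 ± 0.245 to 5.84 ± 0.483 CPM (log2 fold change 1.40 ± 0.20 SE, edgeR's adjusted p 1.6e-04). In anti-IL-8 against control 4 rose and 1 fell, with a median of 0.12, so that 5 of 20 were called, a share near the 20.7% of all genes. MMP10 (1.27, SE 0.20), CCL3 (0.98, SE 0.20), a chemokine with near-identical copies, PLAUR (0.61, SE 0.15), the urokinase receptor, and MMP1 (0.51, SE 0.17) rose, and TIMP1 (-0.62, SE 0.21), an inhibitor of metalloproteinases, fell. MMP1 was called in 6 and TIMP1 in 4 of 12 fits with 1 library left out, and the other 3 in all 12. Heat shock genes, a separate stress response, were followed as well: of 9 tested, HSPA1B rose in OE-MMP28 against control (0.59 ± 0.13 SE, edgeR's adjusted p 0.016, called in 8 of 12 fits with 1 library left out and not without control replicate 2, with adjusted p 0.093), and HSPA1A (1.08, SE 0.19), HSPA1B (0.95, SE 0.13) and DNAJB1 (0.50, SE 0.12) rose in anti-IL-8 against control. HSPA1A and HSPA1B are near-identical copies, so reads may be split between them. In anti-IL-8 against OE-MMP28, 0 genes of any of these 5 lists passed the adjusted threshold in edgeR or voom. Of the 96 list entries, 46 had an unadjusted p under 0.05 by edgeR and 35 were called by DESeq2. Of all 16046 genes, these numbers were 4700 and 2259.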

How the data were processed

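RNA sequencing was done on 12 TAM libraries in 4 groups of 3, assigned from the sample titles. Per the submitters' processing notes, reads were aligned with HISAT2 2.0.5 and counted with featureCounts 1.5.0-p3. The genome build and the strand setting of the counting are not given in the sources used here, and the members' positions equal those of GENCODE 29 on GRCh38. Read counts per gene and FPKM values for 58735 genes were deposited by the authors, and FPKM equals the count divided by gene length and by 1 total per library (15305040 to 19028460). The columns of the authors' 6 comparisons (group means, fold changes and p-values) were not used.

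The members and all lists were chosen with earlier results of these data known. Counts were analysed in R 4.3.3 with edgeR 4.0.16: filterByExpr (16046 genes kept), TMM scaling, 1 coefficient per group in a quasi-likelihood fit of all 12 libraries, and Benjamini-Hochberg adjustment over all kept genes at 0.05. A prior count of 2 was used for log2 CPM values and not for the fit. Intervals are 95% intervals of the fit. Named list genes are, per list, comparison and direction, up to 5 called genes by size of change, provided the group with more counts averaged 50 or above. Lists were AP-1 partners, other immediate early genes, upstream kinases and promoter-binding factors, target genes, heat shock genes, and markers of macrophages, epithelial cells and dividing cells. Likeness is Pearson's correlation of log2 CPM over 12 libraries among protein-coding genes.

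Alternatives were DESeq2 1.42.0, limma 3.58.1 (voom), library totals, a minimum of 10 counts per library, no filter, a replicate block, fits limited to 2 groups, limma on log2(FPKM + 1) and log2(FPKM + 0.1), and each library left out. Leaving libraries out for the lists was added after values had been seen. Scripts were tested on simulated data. Figures used Python 3.11.15, pandas 2.3.3 and matplotlib 3.10.9.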

Additional observations from a re-analysis of the deposited data

How the results depend on the processing

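With each of the 12 libraries left out, the count of all genes called ranged from 297 to 638 in OE-MMP28 against control (507 with all libraries), from 0 to 4183 in anti-IL-8 against OE-MMP28 (0) and from 1269 to 4331 in anti-IL-8 against control (3317). The members called ranged from 0 to 1 (0), 0 to 3 (0) and 2 to 3 (3). Members with a value above 0 ranged from 5 to 7 for anti-VEGFA against OE-MMP28, from 5 to 6 against anti-IL-8, and stayed at 5 against control. Leaving out anti-VEGFA replicate 2 gave 1079 called genes in anti-IL-8 against OE-MMP28, a comparison that does not hold that library. Other settings also changed that count, to 2259 with DESeq2, 1438 with no filter and 1 with FPKM and a pseudocount of 0.1, and 1 member (FOSB) was called with DESeq2 and with no filter. In OE-MMP28 against control 1 member was called with DESeq2, 2 with no filter and 1 in a fit of the 2 groups. In anti-IL-8 against control that fit called 6058 genes and 5 members. The causes were not tested.

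Values of several members changed sign. JUND in OE-MMP28 against control gave 0.02 and turned to -0.0036 with voom, -0.033 with library totals, -0.0018 with FPKM and a pseudocount of 1 and -0.0019 with 0.1, and ranged from -0.18 to 0.15 with libraries left out. FOSL2 in anti-IL-8 against control gave 0.0049 and turned to -0.071 with library totals, -0.0032 with no filter and -0.0090 with at least 10 counts, and ranged from -0.057 to 0.057 with libraries left out. With libraries left out, ranges that crossed 0 were -0.15 to 0.084 for FOSL1, -0.17 to 0.036 for JUN and -0.11 to 0.19 for EGR3 in OE-MMP28 against control, and -0.085 to 0.14 for JUN and -0.17 to 0.014 for EGR1 in anti-IL-8 against OE-MMP28. The others were -0.13 to 0.11 for EGR2 and -0.077 to 0.14 for JUN in anti-VEGFA against OE-MMP28, and -0.37 to 0.022 for EGR1, -0.020 to 0.034 for JUN and -0.060 to 0.36 for JUND in anti-VEGFA against anti-IL-8, where JUND (0.19 with all libraries) and EGR1 (-0.12) changed sign without anti-VEGFA replicate 2.

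The correlation of deviations from the group means ran from -0.28 to 0.55 over 18 pairs of libraries with the same replicate number (median 0.12) and had a median of -0.080 over 36 pairs with other numbers. In each tested comparison at least 1 same-number pair was below 0, so the number was not taken to pair those libraries. Between control and anti-VEGFA all 3 pairs were above 0.1 (0.15, 0.33 and 0.20), and there the replicate block kept the sign of each of the 10 members. With the replicate block, 795 genes were called in anti-IL-8 against OE-MMP28 in place of 0. EGR3, at 32 to 72 counts per library, is the member for which depth limits precision most.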

Other observations

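Genes whose log2 CPM followed FOS most closely over the 12 libraries were OSR2 (Pearson's r = 0.96), a zinc finger gene, SPIN4 (0.95), PNMA8C (0.94), LSM12 (0.93) and MTURN (0.92). PNMA8C lay near the floor, with group means of 1.13 CPM in control and 0.041 under anti-VEGFA, where 3 counts are at least 0.160 CPM. After group means were removed r was 0.92 for OSR2 and 0.52 to 0.82 for the other 4. Group means of OSR2 were 12.7 CPM in control, 6.90 in OE-MMP28, 4.47 under anti-IL-8 and 2.82 under anti-VEGFA. For EGR1 the closest were CCDC32 (0.94), CD84 (0.93), a receptor of leukocytes, FN1 (0.93), which encodes fibronectin, CCR1 (0.91), a chemokine receptor, and PTPRA (0.91). FN1 went from 1246 CPM in control to 841 in OE-MMP28, 794 under anti-IL-8 and 786 under anti-VEGFA. For JUN the closest were HLA-DRB1 (0.91), FUOM (0.90), SOX8 (0.90), CTSG (0.88) and HIRIP3 (0.88). SOX8 had low counts, with group means from 0.449 CPM in OE-MMP28 to 0.801 in control. These are the highest of many correlations over libraries that share their groups, scaling and depth, and they are given as descriptions.

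Among the members, FOS and FOSB had r = 0.94 over the 12 libraries and 0.73 within groups, and JUN and JUNB 0.74 and 0.92. FOS and EGR1 had r = 0.69 over all libraries but 0.02 within groups.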
